A study of Sus scrofa with 4 samples.

Results

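The enzymes and regulators with which the liver makes fatty acids, cholesterol and bile acids were compared between piglets fed a control diet and piglets fed added L-carnitine. The list of 49 genes was chosen by function, as 16 genes of fatty acid synthesis, 23 of sterol synthesis and 10 of bile acid synthesis and biliary secretion. Of these, 31 were matched to a probe set (the group of short probes that reports 1 transcript) annotated to that gene alone, 11, 15 and 5 in the same order, among 6765 genes with such a probe set in all. The other 18 were not analysed here, among them ACACB, ACLY, ELOVL5, MLXIPL, THRSP, MVK, PMVK, MVD, IDI1, LSS, EBP, DHCR7, STARD4, CYP7B1, BAAT, ABCG5, NR1H4 and NR0B2. CYP51A1 is annotated on the array under its pig symbol, CYP51. For each gene the probe set with the highest mean log2 signal was used, and a gene was called dim where that mean lay below the median over all probe sets, a signal of 111. By that measure 28 of the 31 genes were not dim, and ACACA, FADS2 and CYP8B1 were.

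All animals were male crossbreds of (German Landrace x Large White) sows with Pietrain. They entered the trial at 4 weeks of age and about 10 kg and were fed for 21 days, and livers were collected at 7 weeks of age, 2.5 h after the last meal. The control group ate the basal diet without added carnitine, and the carnitine group ate the same diet with 500 mg/kg of L-carnitine. Each diet is represented by 2 pools of liver RNA from 4 pigs each, 1 array per pool, and error can be judged only from how far the 2 pools of a diet lie apart. The authors deposited MAS5 signal intensities on a linear scale, which were put on the log2 scale here. A log2 fold change is the mean log2 signal of the carnitine pools minus that of the control pools, and standard errors (SE) and p-values are from limma, with adjusted p-values by the Benjamini-Hochberg method. Signals of different probe sets are not comparable with each other.

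Fatty acid synthesis builds palmitate from cytosolic acetyl-CoA with NADPH as the reductant, after which desaturases and elongases reshape the chain. Cholesterol synthesis runs from acetyl-CoA through mevalonate to squalene, which is closed to a ring and trimmed to cholesterol, and the liver turns part of that cholesterol into bile acids and exports both into bile. The transcription factors SREBP-1c and SREBP-2, encoded by SREBF1 and SREBF2, switch on the fatty acid and the sterol enzymes. SCAP escorts them to the Golgi for activation and the INSIG proteins hold them back in the endoplasmic reticulum when sterols are plentiful.

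Averaged over the carnitine pools, most of these transcripts had slightly lower signals, more so in pool 2, and no single gene passed the test. Of the 31 genes, 25 had a log2 fold change below 0 and 6 above 0 in the brightest probe set, with a median of -0.28. These counts depend on that choice, since 8 of the 12 genes with several probe sets had both signs among them. The median over all 23999 probe sets was -0.018. Of the 5040 genes that are not dim, 2507 were below 0 and 2533 above 0, with a median of 0.0032. Against the control mean, the 28 members that are not dim had a median of -0.048 in carnitine pool 1 and -0.48 in carnitine pool 2. The differences were small, as 0 genes reached 2-fold in either direction, against 2.32% higher and 1.15% lower among the genes that are not dim. In limma, 0 of 31 genes passed an adjusted p of 0.05 (0.00417% of all probe sets did), and the smallest adjusted p among them was 0.460. At an unadjusted p under that threshold 0 genes were higher and 1, INSIG1, was lower, against 4.72% higher and 3.93% lower over all probe sets and 7.98% and 4.37% among the genes that are not dim. The one-factor analysis of variance named in the methods gave 0 genes at an unadjusted p. After quantile normalization HMGCS1 joined INSIG1 at the unadjusted threshold, as 1 higher and 1 lower.

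By the brightest probe set, both carnitine pools lay above both control pools for 2 genes, SREBF1 and HMGCS1. They lay below them for 7, namely TKT, CYP51A1, MSMO1, NSDHL, INSIG1, CYP27A1 and ABCG8. These are 6.45% and 22.6% of the 31 genes, whereas 19.2% of all probe sets were higher and 20.4% lower by that measure, and 23.7% and 21.6% of the genes that are not dim. The share of lower genes was close to the background, and that of higher genes was below it. A second NSDHL probe set, also not dim, was higher in both carnitine pools. The smallest two-sided p that an exact permutation test allows here is 0.333. With each pool left out in turn, the median log2 fold change of the fatty acid branch ranged from -0.38 to 0.22. That of the sterol branch ranged from -0.51 to -0.10, and that of the bile acid branch from -0.59 to -0.10.

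The hepatocyte markers also lay mostly lower in the carnitine pools. All 10 markers, among them albumin and transthyretin, were measured and none was dim. In 6 of the 10 both carnitine pools lay below both control pools, and the summed signal of the list was 300961 to 332662 in the carnitine pools and 337740 to 366996 in the control pools, with a median log2 fold change of -0.13. Summed signals of the macrophage list (2744 to 3403 against 3774 to 3862), of 3 erythroid markers (574 to 771 against 1027 to 1362) and of 2 dim adipocyte markers (25.8 to 93.3 against 130.0 to 151) were also lower in the carnitine pools. Within these lists the members differed. CD14 was higher in both carnitine pools (log2 fold change 0.52, SE 0.30), and MARCO and HBB had log2 fold changes of 0.13 and 0.073. ALAS2, at -1.39, and the dim AHSP, at -1.03, were lower in both carnitine pools. Summed signals of fibroblast and stellate cell markers overlapped, at 2209 to 2452 against 1524 and 8284. Control pool 2 was the highest there, and also for cholangiocyte markers (1133 against 320 to 429) and endothelial markers (3057 against 1327 to 2332). The sums of the T and NK cell, B and plasma cell and skeletal muscle lists overlapped between the diets too. The ratio of 3' to 5' signal, a sign of RNA integrity, was higher on both carnitine arrays for the GAPDH control (16.1 to 18.7 against 11.6 to 12.5) and for actin (136 to 157 against 86.7 to 91.2). For EF1A, the third control, the diets overlapped, at 23.4 and 29.6 with carnitine against 57.9 and 18.2 without it. The part of these shifts in the differences between the diets was not tested. In bulk liver, fewer cells of a type and less RNA per cell cannot be told apart.

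**Figure D1:**
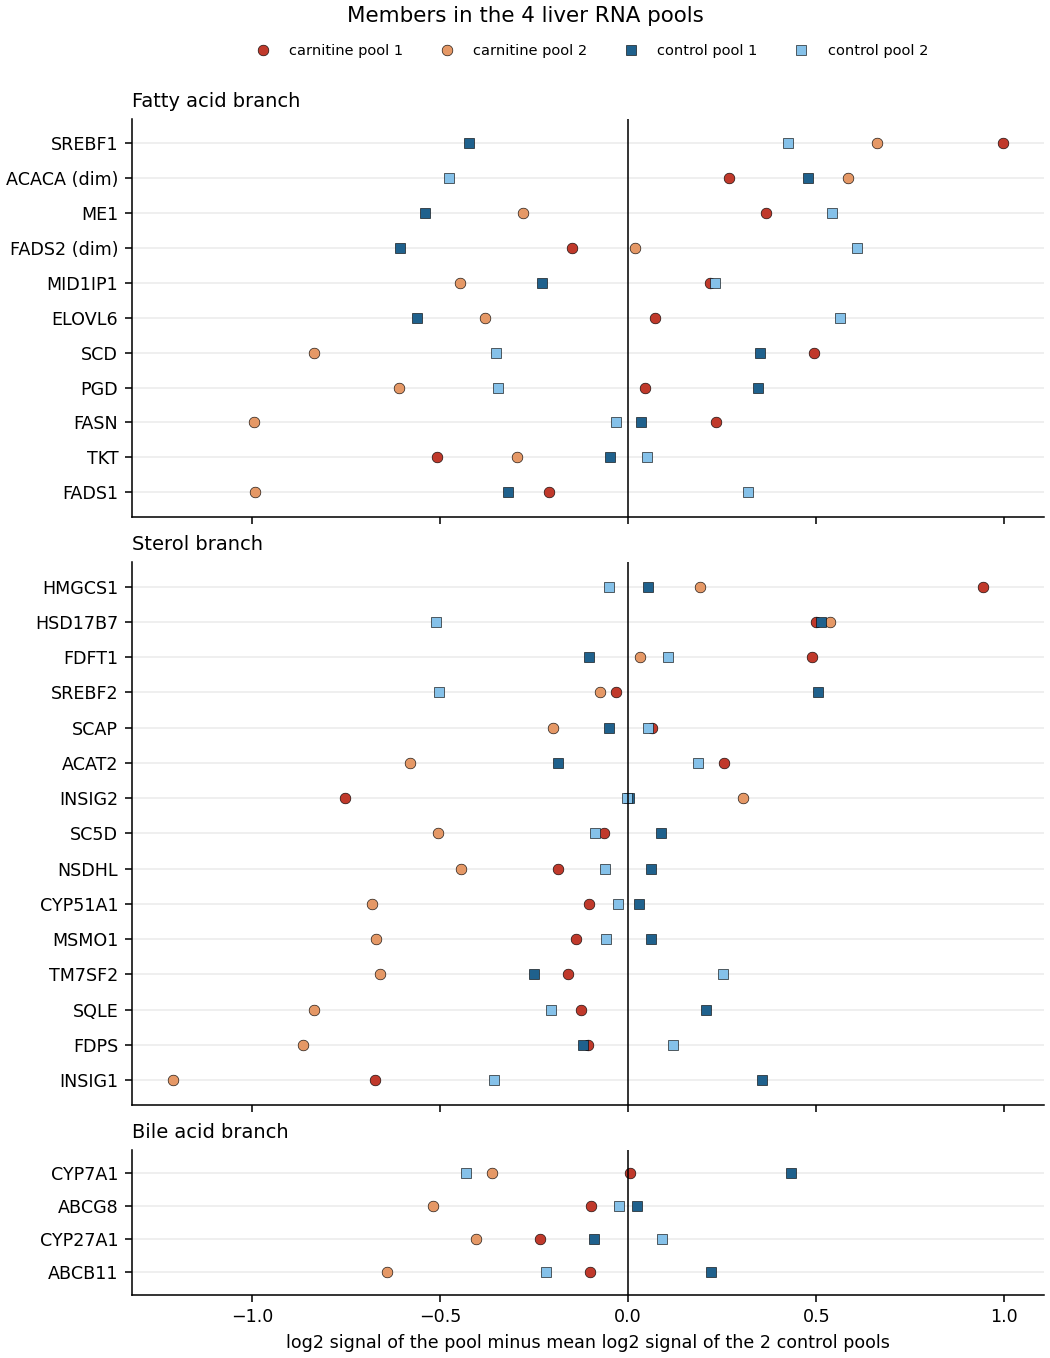
Log2 signal of each pool minus the mean log2 signal of the 2 control pools, for 30 measured genes in their 3 branches, with circles for carnitine pools and squares for control pools (CYP8B1, dim and with a wider spread, is not drawn). The light circles of carnitine pool 2 lie to the left of the dark circles of carnitine pool 1 for most genes, while for INSIG1 both lie left of both squares.

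In the fatty acid branch no carboxylase, synthase, desaturase or elongase had pools that separated by diet in its brightest probe set. The transcript of their activator SREBF1 was higher in both carnitine pools. Of the 11 genes, 8 had a log2 fold change below 0 and 3 above 0, with a median of -0.15 that became 0.22 without carnitine pool 2, -0.38 without carnitine pool 1, -0.35 without control pool 1 and -0.050 without control pool 2. FASN, the synthase that assembles palmitate, gave MAS5 signals of 10843 and 4625 with carnitine against 9438 and 9013 in the control pools. Its control pools were nearly level and the carnitine pools lay on either side of them, so that the log2 fold change was -0.38 (SE 0.37). SCD, which introduces the first double bond into saturated fatty acids, had 23371 and 9294 against 21164 and 13015. Here too the carnitine pools held both the highest and the lowest value (log2 fold change -0.17, SE 0.44).

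FADS1, a desaturase of polyunsaturated fatty acids, gave 1885 and 1096 with carnitine against 1749 and 2721 in the control pools. Carnitine pool 2 was the lowest of the 4, carnitine pool 1 lay between the control pools, and the log2 fold change of -0.60 (SE 0.32) was the lowest of the branch. ELOVL6, which extends palmitate to stearate, had a log2 fold change of -0.15, and the dim desaturase FADS2 one of -0.067. ACACA, the carboxylase that commits acetyl-CoA to fatty acid synthesis, was dim, with 41.0 and 51.1 against 47.4 and 24.5 and overlapping pools (log2 fold change 0.43, 95% interval -0.98 to 1.84).

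Among the suppliers of NADPH, TKT, the transketolase of the pentose phosphate pathway, was lower in both carnitine pools, with 2135 and 2475 against 2935 and 3141 (log2 fold change -0.40, SE 0.19, limma adjusted p = 0.610). PGD, a dehydrogenase of the same pathway, had a log2 fold change of -0.28 and malic enzyme (ME1) one of 0.044, each with overlapping pools. SREBF1 gave 277 and 219 with carnitine against 103 and 186 in the control pools. Both carnitine pools were above both control pools, but the control pools were about as far apart as the diets, and the log2 fold change of 0.83 (SE 0.38, 95% interval -0.066 to 1.72, limma adjusted p = 0.605) ranged from 0.40 without control pool 1 to 1.25 without control pool 2. MID1IP1, which helps acetyl-CoA carboxylase to polymerise, had a log2 fold change of -0.12.

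In the sterol branch INSIG1 had the widest difference of the 31 genes, and most enzymes after squalene had log2 fold changes below 0. All 15 genes were bright enough not to be dim, and 12 had a log2 fold change below 0 and 3 above 0, with a median of -0.28 that ranged from -0.51 without carnitine pool 1 to -0.10 without carnitine pool 2. With the mean over the probe sets of each gene, the median of the branch was -0.13. INSIG1, itself a target of the SREBPs, read 5712 and 3936 in the carnitine pools (mean 4824 ± 1256, SD, n = 2 pools) and 11657 and 7108 in the control pools (mean 9383 ± 3216, SD, n = 2 pools). Both carnitine pools were below the lower control pool, although the pools of each diet differed from each other too. Its log2 fold change was -0.94 (SE 0.29, 95% interval -1.63 to -0.25), with an unadjusted p of 0.0145 and an adjusted p of 0.460 from limma. Without carnitine pool 2 it was -0.67 (unadjusted p = 0.124, limma), without control pool 1 -0.58 (unadjusted p = 0.0647, limma) and without control pool 2 -1.30. Averaged with a second, dim probe set that gave 0.68, the value was -0.13.

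The other sterol regulators were closer to level. SREBF2 read 3646 and 3542 in the carnitine pools, both between the 5285 and 2630.1 of the control pools (log2 fold change -0.053, SE 0.32). SCAP had a log2 fold change of -0.068. INSIG2, a relative of INSIG1 with the same retaining role, had 287 and 598 against 484 and 483, with the carnitine pools on either side of 2 control pools that nearly coincided (log2 fold change -0.22, SE 0.36).

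HMGCS1, which makes HMG-CoA at the start of the mevalonate pathway, was higher in both carnitine pools, with 21126.5 and 12524 against 11375 and 10594. Most of the difference lay in carnitine pool 1, and the log2 fold change of 0.57 (SE 0.27, 95% interval -0.071 to 1.21, limma adjusted p = 0.619) was 0.19 without that pool and 0.94 without carnitine pool 2. FDFT1, the squalene synthase, had 14807 and 10800.2 against 9822 and 11356, with carnitine pool 2 inside the control range (log2 fold change 0.26, SE 0.22). FDPS, which makes farnesyl diphosphate, had 6450.2 and 3815 against 6398 and 7554. Carnitine pool 2 was far below the other 3 arrays and the log2 fold change was -0.49 (SE 0.27). ACAT2, a cytosolic thiolase, had a log2 fold change of -0.16.

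After squalene, 6 of the 7 measured enzymes had a log2 fold change below 0, with a median of -0.39. In 3 of the 7 (42.9%), CYP51A1, MSMO1 and NSDHL, both carnitine pools were below both control pools. The share was 21.6% among the genes that are not dim. These 7 enzymes were set apart outside the planned comparison of the 3 branches, and the share was not tested. After quantile normalization only NSDHL of the 7 was without overlap. A second NSDHL probe set, also not dim, was higher in both carnitine pools, with a log2 fold change of 0.58. SQLE, the epoxidase that is a control point of the pathway, gave 3766 and 2302 with carnitine against 4742 and 3563 in the control pools. Only carnitine pool 2 lay outside the control range (log2 fold change -0.48, SE 0.28). CYP51A1, the lanosterol demethylase, had 19788 and 13272 against 21690.1 and 20878. Both carnitine pools were lower, pool 1 by little, and the log2 fold change was -0.39 (SE 0.24, limma adjusted p = 0.696).

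The demethylating enzymes MSMO1 and NSDHL had log2 fold changes of -0.40 (SE 0.23) and -0.32 (SE 0.20), the reductase TM7SF2 one of -0.41 and the desaturase SC5D one of -0.28. After quantile normalization the pools of CYP51A1 and MSMO1 overlapped. HSD17B7, a sterol ketoreductase, was the exception, with 1667 and 1710.1 against 1680.4 and 826. Control pool 2 alone was low there, and the log2 fold change of 0.52 (SE 0.33) was 0.0068 without that pool and 1.03 without control pool 1. The hepatocyte marker list, at a median of -0.13, lay on the same side as these enzymes.

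In the bile acid branch every measured gene had a log2 fold change below 0, and none passed the test. The median over the 5 genes was -0.32, with -0.10 without carnitine pool 2 and -0.59 without control pool 2. CYP7A1, the rate-limiting enzyme of the classical route of bile acid synthesis, gave 341 and 264 with carnitine against 458 and 252 in the control pools. The carnitine pools lay between the control pools (log2 fold change -0.18, SE 0.35, 95% interval -0.999 to 0.64). CYP27A1, the mitochondrial sterol hydroxylase that opens the alternative route, had 10857 and 9648 against 11995 and 13598. Both carnitine pools were lower, with a log2 fold change of -0.32 (SE 0.19, limma adjusted p = 0.694).

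The transporters that secrete into bile were on the same side. ABCB11, the bile salt export pump, gave 1019 and 701 with carnitine against 1272 and 939 in the control pools, with carnitine pool 1 inside the control range (log2 fold change -0.37, SE 0.27). ABCG8, which exports cholesterol together with its partner ABCG5, had 1455 and 1086 against 1582 and 1532 and was lower in both carnitine pools (log2 fold change -0.31, SE 0.21, limma adjusted p = 0.727). CYP8B1, which steers synthesis towards cholic acid, was dim, with 1.45 and 28.9 against 14.0 and 7.28. Its carnitine pools held both extremes and the log2 fold change of -0.64 has a 95% interval of -4.05 to 2.76.

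**Figure D2:**
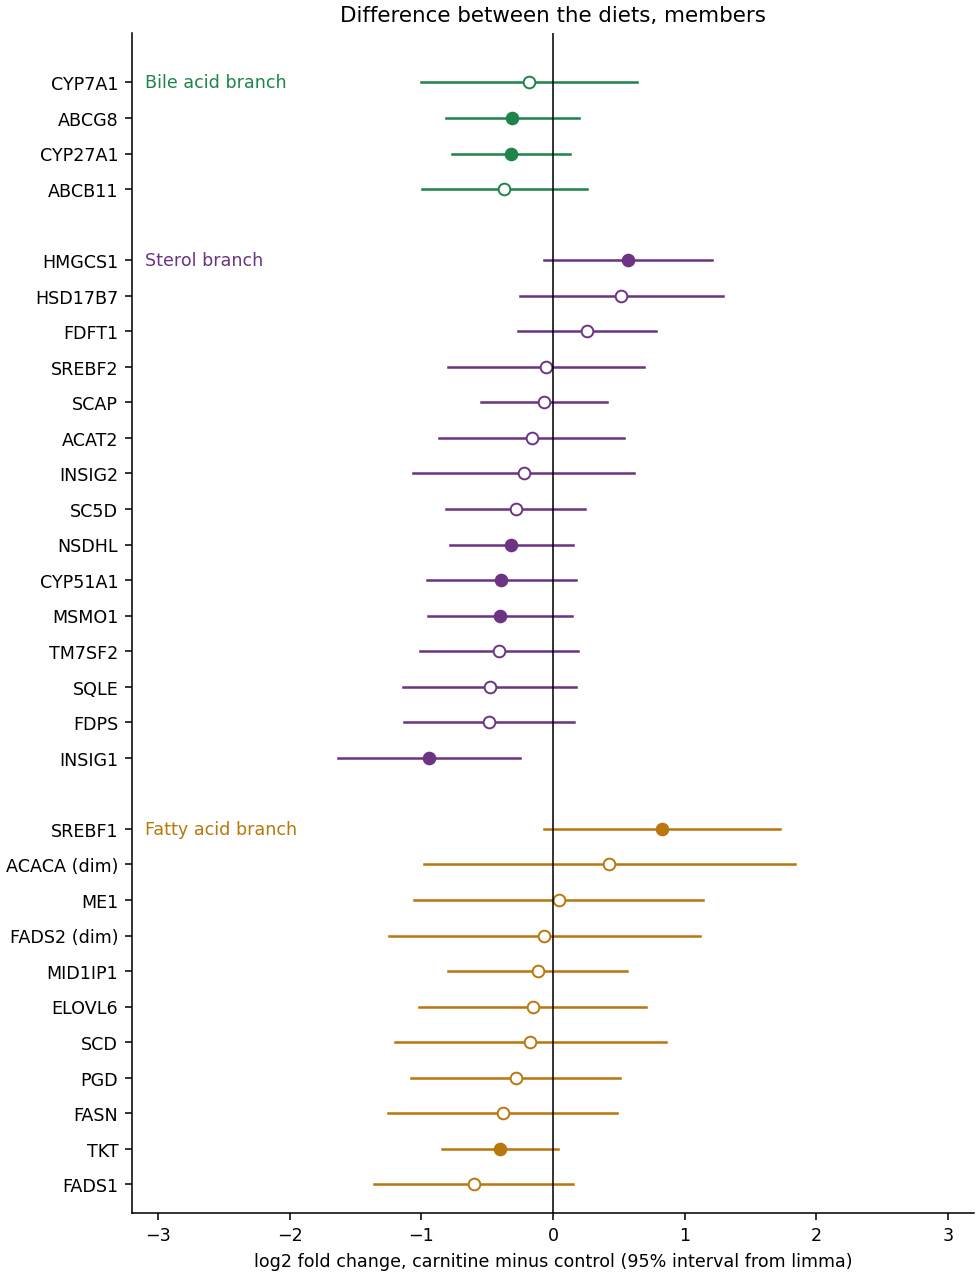
Log2 fold change of 30 measured genes, carnitine minus control, with the 95% interval from limma as a line, filled points for genes whose pools do not overlap between the diets and open points for the others (CYP8B1 is not drawn). INSIG1 at -0.94 is the gene whose interval does not reach 0.

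The carnitine pools differed from each other on these genes. In 25 of the 28 genes that are not dim the signal was higher in carnitine pool 1 than in carnitine pool 2, or 89.3%, against 49.5% of the 5040 such genes on the array. The 3 others were TKT, HSD17B7 and INSIG2. The median difference in log2 signal, pool 1 minus pool 2, was 0.52 for the 28 genes and -0.0035 for all genes that are not dim. By branch it was 0.65 for 9 fatty acid genes, 0.50 for 15 sterol genes and 0.39 for 4 bile acid genes. It was widest in SCD at 1.33 and FASN at 1.23, both above 2-fold. INSIG2 differed by -1.06, in the opposite direction. Between the control pools 16 of the 28 genes, or 57.1%, were higher in pool 1, against 52.2% of all such genes, and the median difference was 0.051.

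The gap between the carnitine pools was wider than the difference between the diets for 21 of the 28 genes, and the gap between the control pools was wider for 14. Among the 5040 genes that are not dim, the numbers were 2302 and 2786 in the same order. A gap between single pools varies more than a difference between means of 2 pools. For 24 of the 28, or 85.7%, at least 1 of these gaps was wider, against 68.6% of all genes that are not dim, and CYP51A1, with its carnitine pools at 19788 and 13272, was among them. Set against the mean of the control pools, carnitine pool 1 had a median log2 difference of -0.048 over the 28 genes, with 13 above 0 and 15 below 0, and carnitine pool 2 one of -0.48, with 5 above 0 and 23 below 0. Both values use the same control pools. For the fatty acid genes that are not dim the medians were 0.22 and -0.45, and for the sterol genes -0.10 and -0.51. Of the 10 hepatocyte markers 9 were also higher in carnitine pool 1, where the log2 of their summed signal was higher by 0.14. The control pools were alike in this, with 8 of the 10 higher in control pool 1 and a log2 difference of 0.12. Between carnitine pools 1 and 2 the ratio of 3' to 5' signal was 18.7 and 16.1 for GAPDH, 157 and 136 for actin and 23.4 and 29.6 for EF1A, and its part was not tested.

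**Figure D3:**
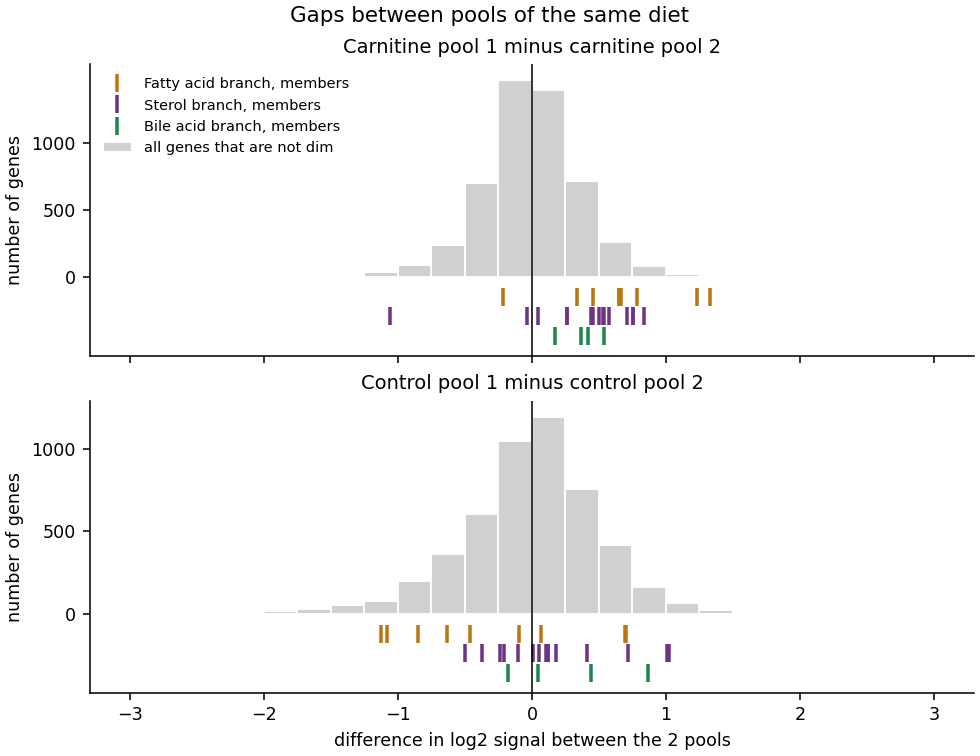
Difference in log2 signal between the 2 carnitine pools (top) and between the 2 control pools (bottom), with grey bars for the number of genes that are not dim in bins of 0.25 and coloured ticks for the measured genes of the 3 branches. In the top panel 25 of 28 ticks lie to the right of 0, and in the bottom panel 16 of 28.

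Where a gene had several probe sets, these often gave different signs. Of the 31 genes, 12 had more than 1 probe set, and in 8 of the 12 the log2 fold changes had both signs. In 4 genes, FASN, ELOVL6, ACAT2 and NSDHL, more than 1 probe set was not dim, and in all 4 those brighter probe sets had both signs. For NSDHL, an enzyme that removes methyl carbons of lanosterol, the brightest probe set gave 1404 and 1174 with carnitine against 1667 and 1533 in the control pools. The other had 1544 and 1078 against 1069.98 and 701. The first was lower and the second higher in both carnitine pools, with log2 fold changes of -0.32 (SE 0.20) and 0.58 (SE 0.28). The 4 probe sets of ELOVL6 ranged from -0.38 to 0.65, and the 4 of FASN from -0.38 to 0.54. CYP27A1 and MSMO1, with 3 probe sets each, had values below 0 throughout.

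**Figure D4:**
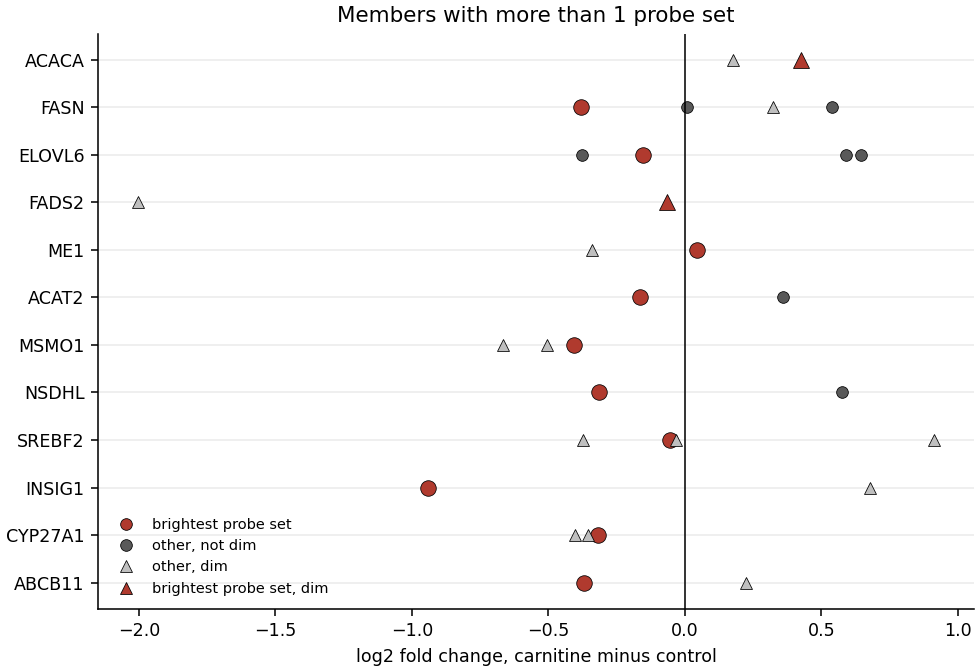
Log2 fold change, carnitine minus control, of every probe set of the 12 genes with more than 1, with red for the brightest probe set of each gene, circles for probe sets that are not dim and triangles for dim ones. The circles of FASN, ELOVL6, ACAT2 and NSDHL lie on both sides of 0.

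Other genes of the same pathways, listed by function, lay on both sides of 0 in like numbers. Of 69 such genes 34 were measured, and their log2 fold changes were above 0 in 16 and below 0 in 18 with a median of -0.017. None passed an adjusted p in limma. At the unadjusted threshold of 0.05 there were, by the brightest probe set, 3 higher genes of the 34 and 0 lower ones, beside 7.98% and 4.37% of the genes that are not dim. A second probe set of ACOX2, not dim, was lower in both carnitine pools (log2 fold change -1.17, unadjusted p = 0.00565, limma). Second probe sets of HNF4A (0.64) and UBXN4 (0.44), also not dim, were higher at that threshold. SLC25A1, the carrier that brings citrate to the cytosol as the carbon source for fatty acid and sterol synthesis, gave 7758 and 10229 with carnitine against 4352 and 5521 in the control pools. Both carnitine pools were clearly above both control pools, and pool 2 was the higher of them (log2 fold change 0.86, SE 0.22, 95% interval 0.33 to 1.39, limma adjusted p = 0.399).

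ABCA1, which exports cholesterol to nascent HDL, had 650.5 and 567 against 363 and 434, higher in both carnitine pools (log2 fold change 0.61, SE 0.24, limma adjusted p = 0.533). ATP8B1, a phospholipid flippase of the canalicular membrane, had 1347 and 1848 against 1056 and 1079.8 and was also higher in both (log2 fold change 0.56, SE 0.22, limma adjusted p = 0.541). SLC10A1, the uptake carrier for bile salts, had 11662 and 6818 against 10037 and 18009, with overlapping pools and a log2 fold change of -0.59 (SE 0.35). Of the 34 genes 21 were higher in carnitine pool 1 than in carnitine pool 2, with a median log2 difference of 0.047. By pathway these were 8 of 14 fatty acid genes (median 0.13), 7 of 7 sterol genes (0.43) and 6 of 13 bile acid genes (-0.0076).

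**Figure D5:**
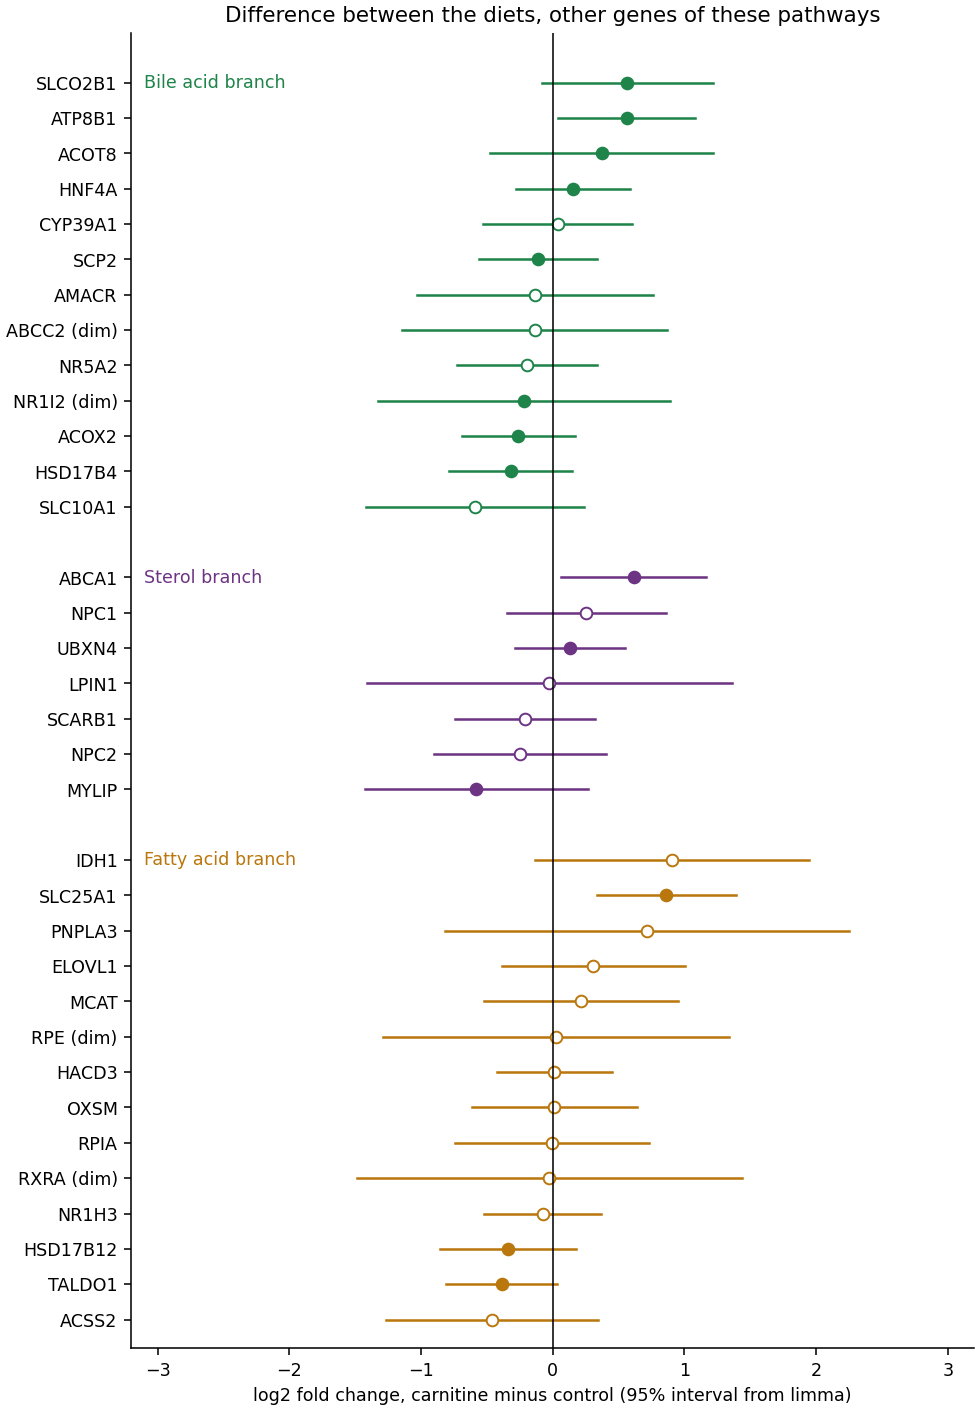
Log2 fold change of 34 other genes of the same pathways, carnitine minus control, with the 95% interval from limma, filled points where the pools do not overlap between the diets and open points otherwise. The intervals of SLC25A1, ABCA1 and ATP8B1 lie above 0.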

How the data were processed

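Liver RNA was measured in 4 pools, 2 per diet, on single-colour Affymetrix porcine arrays. The authors deposited MAS5 signal intensities, and per the labels GCOS 1.1.2, Affymetrix Expression Console 1.1 and MAS5 5.0 were used. Detection calls were not used here. Without them the distance from background is unknown, so that dim signals are the least certain, and the number of arrays limits the precision. Of 24123 probe sets, 124 controls were left out, and the log2 intensities of 23999 deposited probe sets were fitted over all genes in R 4.3.3 by lmFit of limma 3.58.1, followed by eBayes with trend and 2 residual degrees of freedom, with Benjamini-Hochberg adjustment at 0.05. The fit was run on simulated data with independent normal noise, which checks the code and not how the p-values hold in these pools. The labels number the pools as biological replicates. The limma p-values, SEs and intervals rest on the spread between pools, which eBayes draws toward that of probe sets of similar signal. The one-factor analysis of variance, which uses the pools of each gene alone, gave INSIG1 an unadjusted p of 0.170. In the array annotation 10069 probe sets have 1 symbol, 198 have several and 13732 have none. The gene table changed 0 symbols. No genome coordinates are given, since no build is named. The genes and lists were chosen with earlier results of these data known. Values in every pool are given for genes with an unadjusted p under 0.05, the 4 of each branch with the largest absolute log2 fold change among those not dim, and named rate-setting enzymes, regulators and transporters. The second probe set of NSDHL was picked for its value. Alternatives were quantile normalization, median centring, a floor at the 25th percentile, an offset of 64, a filter at the median signal, the mean over probe sets, limma without trend, the one-factor analysis of variance, replicate number as a block, and leaving out each pool.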

Additional observations from a re-analysis of the deposited data

How the results depend on the processing

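The count of 0 genes past an adjusted p held under every alternative that was run, the medians of the sterol and bile acid branches stayed below 0 under all of them, and that of the fatty acid branch under all but 1. With the mean over probe sets the sterol median was -0.13, against -0.28 in the report. The number of the 31 genes at an unadjusted p, 1 in the report, was 2 after quantile normalization, 0 with the mean over probe sets, 0 in limma without a trend, 0 in the analysis of variance and 3 with the replicate number as a block. At 2-fold or more there was 1 gene, FADS2, with the mean over probe sets, against 0. Of the 34 other pathway genes 3 had an unadjusted p under 0.05, 0 without a trend and 5 with the block. Leaving out each pool in turn gave 1 to 6 genes at an unadjusted p, 16 to 25 without overlap (9 in the report, and fewer pools overlap less by construction), 1 to 3 at 2-fold, 1 to 5 of the other pathway genes, and medians of the fatty acid branch from -0.38 to 0.22. Only part of the 31 genes had their values traced under each alternative. Among these, the direction turned in that range for ACACA (-0.050 to 0.90), FASN (-0.996 to 0.23), SCD (-0.84 to 0.49), SREBF2 (-0.56 to 0.45), INSIG2 (-0.75 to 0.31), CYP7A1 (-0.61 to 0.25) and CYP8B1 (-2.80 to 1.52). Of the genes not traced, ELOVL6 (0.072), ACAT2 (0.26) and MID1IP1 (0.22) were among those that turned above 0 without carnitine pool 2. The direction also turned for CYP8B1 with the floor (0.016) and the offset (0.064), and for FASN (0.12) and SREBF2 (0.11) with the mean over probe sets. Means over probe sets were not traced for ELOVL6, ACAT2, NSDHL and ME1, whose probe sets had both signs. The cause was not tested. The replicate numbers are not known to pair the pools, since deviations of pools with the same number correlated at 0.0032 across the brighter probe sets. With the block, 106 probe sets of the array passed the adjusted p, against 1 without it, and INSIG1 had an adjusted p of 0.0862, within a range of 0.0862 to 1.00 over its alternatives. Fits without a pool assume that the lone pool varies like the other diet. Dim signals limit what can be said of ACACA, FADS2 and CYP8B1.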
